A study of Mus musculus with 2 samples.

Results

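The genes described here are the miRNA genes that lie inside Sfmbt2 on mouse chromosome 2, read in forebrain of embryos at embryonic day 12.5. A gene was a member when GENCODE M21 (mm10) placed it as a miRNA gene on the plus strand within the bounds of Sfmbt2, with a name starting in Mir or Gm, whether or not it had reads. This took 107 of the 1973 genes in the deposited tables, 59 named Mir and 48 named Gm. Another 12 annotated miRNA genes of the interval, 9 of them Mir669a copies and 3 Mir466 copies, had no row under their M21 IDs and were not analysed. Rows whose ID is not in M21 could not be placed, and whether any stands for these genes was not tested. The series held 1 group, forebrain of the B6NCrl strain with no treatment, with 2 biological replicates. Replicate 1 was a pool of 120 embryos and replicate 2 a pool of 68 embryos, both sexes together, and each pool gave 1 library of RNA below 30 nt. Each pool having 1 library, variation between pools and variation from handling or sequencing cannot be told apart.

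MicroRNAs are short RNAs cut from hairpin precursors, and they lower the output of messenger RNAs whose sites pair with their seed, near the 5′ end. Sfmbt2 encodes a Polycomb group protein and is imprinted in extraembryonic tissue, where it is expressed from the paternal copy. Its intronic miRNA cluster is a rodent feature, built of many repeated copies of the miR-297, miR-466, miR-467 and miR-669 families, and is known mainly for its abundance and its role in the placenta.

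No mature sequence of a member was found in the RefSeq source used here (GRCm38.p6). As examples of the families, 5 of 8 sequences found for family genes elsewhere in the genome are given. They are written 5′ to 3′, with the seed (bases 2 to 8) in capitals, and do not show the repeats of the members themselves. They are largely alternating runs of purines and pyrimidines, rich in CA, GU and UA steps.
mmu-miR-466q: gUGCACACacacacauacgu
mmu-miR-466k: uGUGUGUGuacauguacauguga
mmu-miR-467f: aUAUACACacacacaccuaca
mmu-miR-467h: aUAAGUGUgugcauguauaugu
mmu-miR-669n: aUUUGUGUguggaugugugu
They come from chr3:28419988-28420007 (plus strand), chr3:85467396-85467418 (plus strand), chr11:69635419-69635439 (minus strand), chr9:115381898-115381919 (plus strand) and chr3:115979905-115979924 (plus strand), in that order. No member hairpin held any of these 5 sequences in full. The 5 have different seeds.

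The libraries had 4333194 and 4397107 gene-strand reads in miRNA genes. Levels are reads per 1000000 of these (CPM), not divided by length. The neural list summed to 29985 and 29203 CPM in replicates 1 and 2, and 7 of its 11 genes, 9 of which had a row, reached 10 reads in both libraries. Of its genes, Mir92b stood at 19420 and 19820 CPM, Mir137 at 5127 and 5286 CPM and Mir153 at 3304 and 2251 CPM. Its miR-124 genes stood low. Mir124a-1 had 2.54 and 1.36 CPM, Mir124a-2 5.54 and 7.05 CPM and Mir124a-3 2.08 and 2.27 CPM. Among markers of other cells, Mir126a of endothelium stood at 16564 and 21180 CPM, the mural and mesenchymal list at 8695 and 11152 CPM in sum, and the liver list at 98.3 and 99.4 CPM. The leukocyte list summed to 372.7 and 452.1 CPM, the erythroid list to 317.8 and 238.3 CPM, and the muscle list to 3.23 and 26.6 CPM with Mir133a-1 and Mir133a-2 at 0. Reads that matched several places, 4213961 and 4224434 or 37.9% of all reads in both libraries, have a row of their own in the tables. All rows added up to the same total, 11104730 and 11154304 reads, in each of the 3 columns, as they would if these reads were counted apart from the genes, but how the counter treated them is not given in the sources used here. They outnumbered all reads of the cluster 244-fold and 213-fold. A low count in a gene with copies, whether member or marker, may thus miss an unknown part of its reads.

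The cluster gave 17289 reads in replicate 1 and 19865 in replicate 2, or 0.425% ± 0.0373 of assigned reads (SD, n = 2). Most of it came from Mir467c, Mir467d and Mir467e, which held 78.2% ± 0.422 of the cluster's reads. In all, 10 of 107 members were detected, meaning at least 10 reads in both libraries, or 9.35% beside 20.4% of all 1973 genes. These 10 members held 99.7% of the cluster's reads in each library, and 74 members had no read in either. Genes without a read shared rank 764 of 1973 by mean level, so most genes overall had none either. A gene without reads could have stood at as much as 0.692 or 0.682 CPM (replicates 1 and 2), the level of 3 reads, and these limits cover counting error only.

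Mir467c (ENSMUSG00000077049.2) was the highest member, with 1203 and 1307 CPM in replicates 1 and 2. It lies at chr2:10473931-10474027 and ranked 93 among the 1973 genes by mean level. Mir467d (ENSMUSG00000077021.2), at chr2:10507630-10507714, had 1032 and 1249 CPM. Its range overlapped that of Mir467c, although Mir467c was higher in each library. Mir467e (ENSMUSG00000076948.2), at chr2:10505721-10505807, had 871.2 and 987.9 CPM, below both values of Mir467d. The hairpins of Mir467d and Mir467e were 92.0% identical in a global alignment, and each was less like Mir467c, at 83.5% and 83.7%.

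The other 11 members of the miR-467 family, Mir467b and the 10 Mir467a copies, gave 7 and 4 reads in all. Only Mir467b, with 5 and 3 reads, and Mir467a-1, with 2 and 1, had any. Their hairpins were close copies, with a median identity of 98.8% over 55 pairs, and Mir467a-2, Mir467a-4, Mir467a-5, Mir467a-7, Mir467a-8 and Mir467a-9 were identical to each other and to Gm25022. Against Mir467c, Mir467d and Mir467e the median was 81.1% over 33 pairs. Families were read from gene names, so Gm25022 was counted with the genes named Gm. A level per gene cannot be read for identical hairpins, since a read from one fits all of them.

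The miR-669 family was next, with 21.2% and 20.7% of the cluster's reads and 5 of 20 members detected. Mir669o had 392.8 and 440.3 CPM, and Mir669l had 332.1 and 352.7 CPM, so both values of Mir669o lay above both of Mir669l. Mir669c followed with 84.9 and 103.5 CPM and Mir669e with 27.9 and 30.5 CPM. Mir669h was lowest of the detected miR-669 genes, with 25 and 20 reads or 5.77 and 4.55 CPM. The ranges of these 5 genes did not overlap each other.

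The miR-466 and miR-297 families gave few assigned reads. Of 20 miR-466 members only Mir466n was detected, with 24.5 and 22.1 CPM, and the family held 0.706% and 0.624% of the cluster's reads. Of 5 miR-297 members only Mir297a-2 was detected, with 13 reads in replicate 1 and 35 in replicate 2, or 3.0 and 7.96 CPM, a range that encloses that of Mir669h. None of the 48 genes named Gm was detected. Reads were found for 7 of them, at most 7 in one library. Most genes named Gm outside the cluster also had no read in either library. Few of those were detected, among them Gm23935 with 219 and 682 reads and Gm23450 with 211 and 201. Just outside the detection minimum lay Mir669f, with 6 and 7 reads, and Gm22925, with 7 and 4, while Mir297a-2 and Mir669h lay just inside it.

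**Figure D1:**
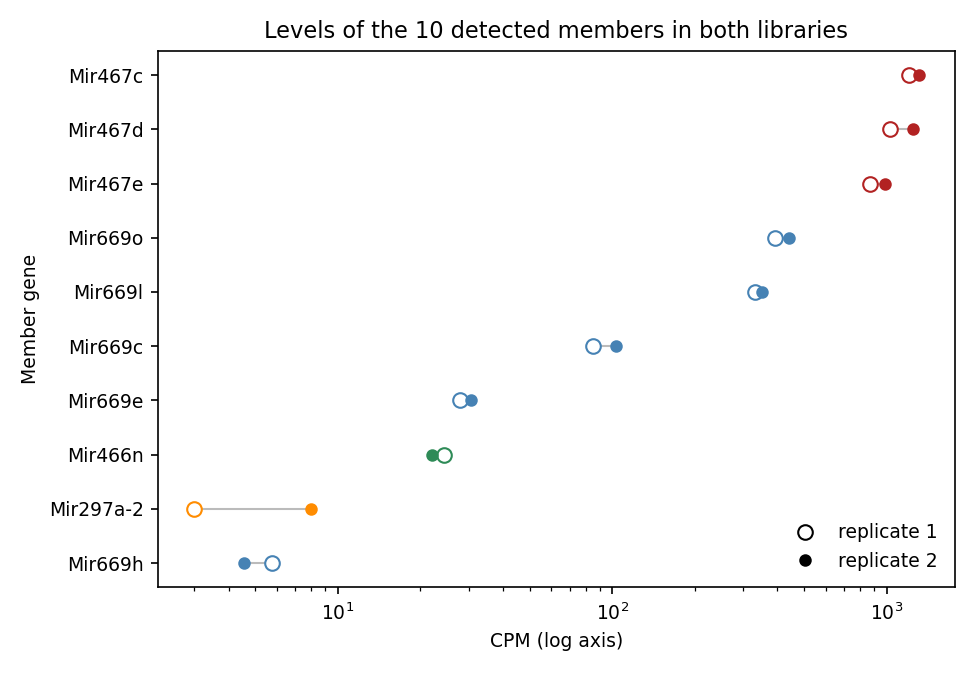
Level in CPM (log axis) of each detected member in replicate 1 (open circle) and replicate 2 (filled circle), 1 library each, coloured by family as red for miR-467, blue for miR-669, green for miR-466 and orange for miR-297. The 3 miR-467 genes sit highest, between 871.2 and 1307 CPM, and Mir297a-2 shows the widest gap, from 3.0 to 7.96 CPM.

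All 107 members lie in a single intron of Sfmbt2 (chr2:10370510-10595253, plus strand), from 10465287 to 10518279, a span of 53.0 kb. The intron runs from 10461473 to 10523944 and is the 11th of the principal 23-exon transcript. No member overlapped an exon. Along the intron the assigned reads stood at both ends. The 20 members upstream of Mir467a-1 held 39.3% and 37.7% of the cluster's reads, with Mir669e, Mir669l, Mir297a-2 and Mir467c detected. The 32 members downstream of Mir467a-10 held 60.7% and 62.3%, with Mir467e, Mir467d, Mir669c, Mir466n, Mir669o and Mir669h detected.

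Between them, the 55 members from Mir467a-1 to Mir467a-10 fill 27.0 kb and gave 7 and 4 reads in all, with no member detected. This stretch is a tandem array, in which Mir467a and Mir467b copies follow each other at a median spacing of 2454.5 bases. All 55 of its hairpins share a run of at least 20 bases with another annotated hairpin, as do 20 of 20 upstream and 29 of 32 downstream. In 40 of 55, every run of 22 bases recurs elsewhere in annotated hairpins, against 0 of 20 upstream and 2 of 32 downstream. How far this limits the assigned reads of the array was not tested. The bounds of the array were set by gene names and not by reads.

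**Figure D2:**
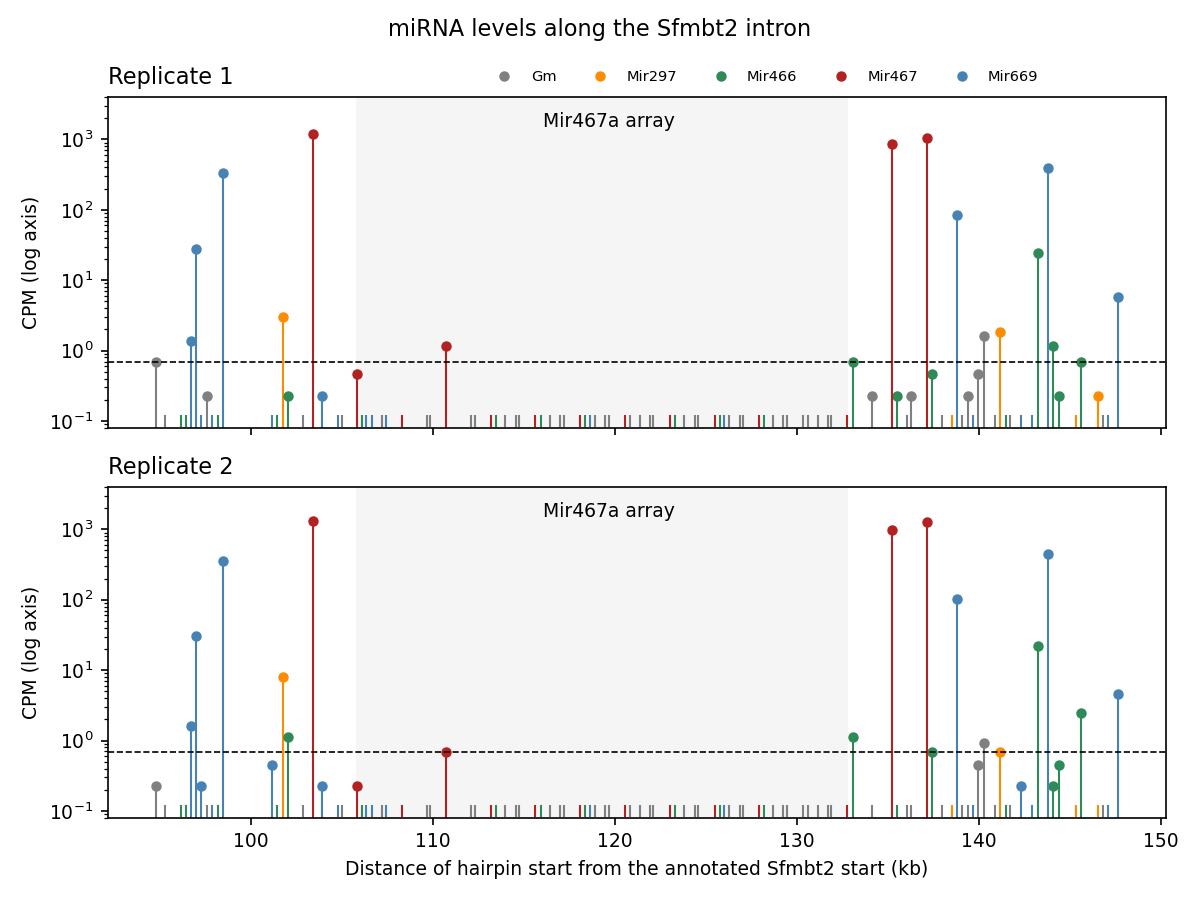
Level in CPM (log axis) of the 107 members against the distance of the hairpin from the annotated Sfmbt2 start in kb, with replicate 1 above and replicate 2 below. Stems with dots are members with reads, short ticks at the bottom are members with 0 reads, the dashed line is the level of 3 reads, and the grey band is the array from Mir467a-1 to Mir467a-10, which holds 2 members with reads.

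Neighbouring hairpins differed widely in assigned reads, which may miss reads that match several places. Mir466 lies 203 bases downstream of Mir467d and had 2 and 3 reads beside 4474 and 5493. Mir466p lies 198 bases downstream of Mir467e and had 1 and 0 reads beside 3775 and 4344. Mir466g lies 199 bases downstream of Mir669o and had 5 and 1 reads beside 1702 and 1936. Mir669c, with 368 and 455 reads, stood between Mir297c and Gm24342, 182 and 179 bases away, which had none. Mir466n and Mir669o, 465 bases apart, were the only neighbouring members that were both detected. Apart from the detected members, the neighbours were named after their values were seen.

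Sequence sharing was read from the hairpins of GENCODE M21. A run of at least 20 bases occurred in another annotated hairpin for 104 of 107 members (97.2%), against 819 of 1787 matched genes outside the cluster (45.8%). The 3 without such a run were Gm22239, with 2 reads in each library, Gm23542, with none, and Mir466g. Only 84 distinct hairpin sequences were present, and 38 members had an identical copy within the set. In the median member 82.6% of neighbouring bases switched between purine and pyrimidine, against 43.5% in the median gene outside, and the median GC content was 38.3% against 52.0%.

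Since a read covers only part of a hairpin, each hairpin was also cut into overlapping windows of 22 bases, about the length of a miRNA. A window was called unique when no other annotated hairpin held it and it occurred a single time in its own. Of the 107 members, 42 had no unique window, and none of these was detected. They gave 2 reads and 1 read in all, every one from Mir467a-1. Of the 65 members with a unique window, 10 were detected. Outside the cluster, 1 of 212 genes without a unique window and 392 of 1575 genes with one were detected. Genes outside that share a run of 20 bases were detected in 79 of 819 cases, or 9.65%.

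The 10 detected members had between 25 and 95 unique windows, with a median of 43.5, and the other 97 had between 0 and 93, with a median of 19. The most abundant members were not those with the most unique sequence. Mir467d had 25 unique windows of 64, Mir467e 39 of 66 and Mir467c 48 of 76, whereas Mir669e had 95 of 98 at 29.2 ± 1.80 CPM (SD, n = 2). Among undetected members, 38 had at least 25 unique windows, and 21 of these had no read in either library. Gm26073, with 93 unique windows, and Mir669i, with 80, were among those without a read, and were named after their values were seen. Across the 107 members, Spearman's rho between unique windows and log2(mean CPM + 1) was 0.54, and 0.26 over the 65 members with a unique window. The points share both libraries and their hairpins are copies of each other, so these values are descriptions. Windows were compared with annotated hairpins only, over whole hairpins, so a read from a unique window may still match elsewhere in the genome.

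**Figure D3:**
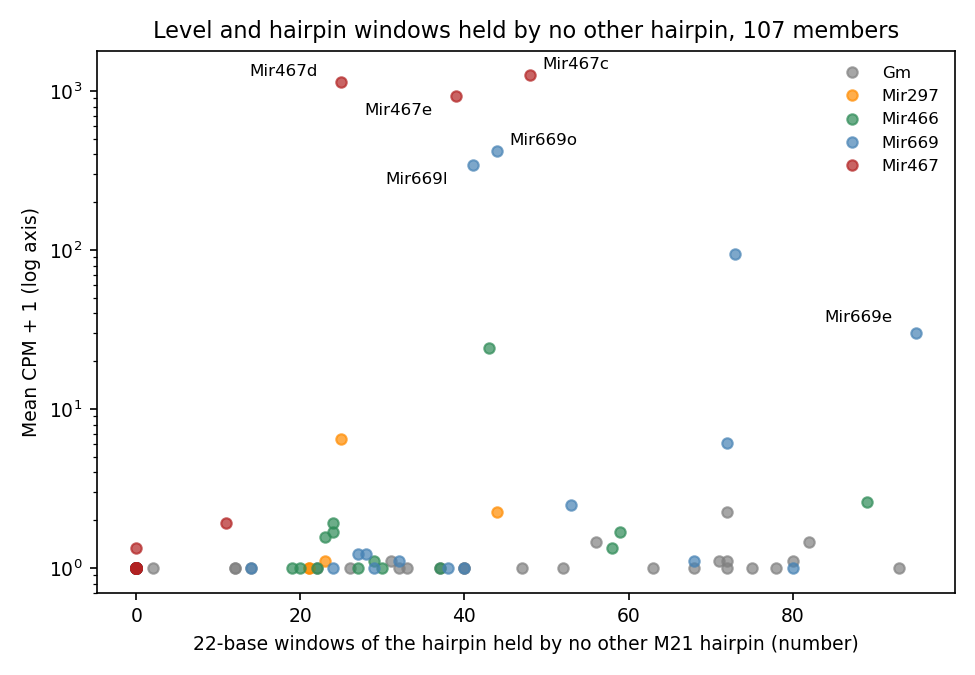
Mean CPM + 1 of both replicates (log axis) against the number of 22-base hairpin windows that no other M21 hairpin held, for the 107 members coloured by family. Points at 0 windows lie at the bottom, while Mir467d reaches 1141 CPM with 25 windows and Mir669e stands at 29.2 CPM with 95.

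Family members outside Sfmbt2 gave almost no assigned reads. Of 10 such genes on other chromosomes, none was detected, and only Mir466q had reads, 0 and 2. Mir297-1, Mir466f-4, Mir466i, Mir466j, Mir466k, Mir467f, Mir467g, Mir467h and Mir669n had none. Each of these 10 genes had unique windows, from 22 of 55 in Mir297-1 and 40 of 100 in Mir467h to 90 of 99 in Mir467f and 33 of 33 in Mir669n.

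The cluster was read on its own strand. Opposite-strand reads numbered 0 in replicate 1 and 1 in replicate 2, the latter at Mir467e, against 2.69% and 2.78% of assigned reads over all genes.

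The replicate libraries were compared gene by gene over the whole table by Fisher's exact test, two-sided, with p-values adjusted after Benjamini and Hochberg. The test took in the 511 genes whose reads summed to at least 10 over the libraries. This compares the libraries, not conditions. Of 14 members tested, 1 was called at an adjusted p under 0.05 with at least a 2-fold difference, against 2.74% of all genes tested in either direction and 2.15% higher in replicate 2. This was Mir297a-2, 2.65-fold higher in replicate 2 (adjusted p = 0.00756, Fisher's exact test). It rests on 13 and 35 reads.

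Without the minimum fold, 6 of 14 members passed, all higher in replicate 2, against 32.7% of all genes in either direction and 20.2% in that direction. Mir467d was 1.21-fold higher in replicate 2 (adjusted p = 2.07e-20, Fisher's exact test), Mir467e 1.13-fold (adjusted p = 9.34e-08) and Mir467c 1.09-fold (adjusted p = 6.27e-05). Mir669o was 1.12-fold higher (adjusted p = 0.00238) and Mir669c 1.22-fold higher (adjusted p = 0.0179). Mir669c did not pass under TMM scaling, where 5 members did. The test covers counting error only. The other 8 members tested did not pass. Among them Mir669l, Mir669e, Mir669h and Mir466n had adjusted p of 0.216, 0.663, 0.633 and 0.655 by Fisher's exact test. The other 4 had few reads and lay on both sides. Mir466l had 3 and 11 reads (adjusted p = 0.14, Fisher's exact test) and Mir669f 6 and 7 (adjusted p = 1). Mir297b had 8 and 3 reads (adjusted p = 0.286) and Gm22925 7 and 4 (adjusted p = 0.564). In all, 10 of the 14 stood higher in replicate 2. Among detected genes, 8 of 10 members stood higher in replicate 2, beside 226 of all 403. Mir466l and Mir297b were named after their values were seen.

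Over the 14 members with a mean of at least 1 CPM, the median log2 ratio of CPM + 1 between replicate 2 and replicate 1 was 0.12, beside 0.04 over the 521 genes of that level. The members come from 1 intron and cannot be taken as independent, though how they vary together was not measured. Of the marker lists given above, the mural and mesenchymal, leukocyte and muscle lists and Mir126a were also higher in replicate 2. The liver list was slightly higher, and the neural and erythroid lists were lower. The part of these cells in the ratios was not tested.

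**Figure D4:**
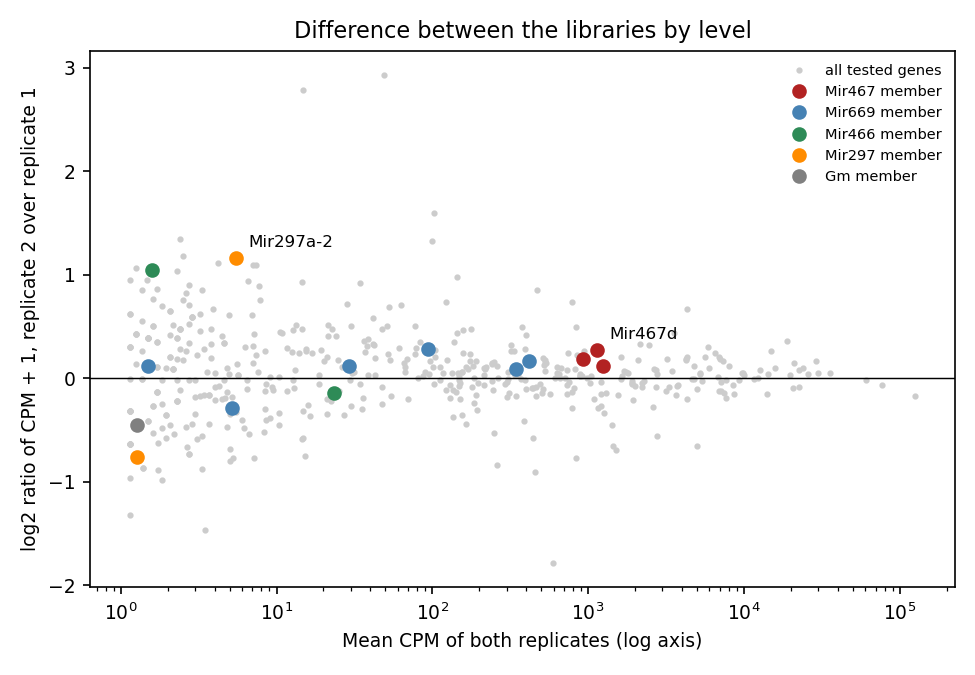
Log2 ratio of CPM + 1 between replicate 2 and replicate 1 against mean CPM (log axis) for the 511 genes tested (grey) and the 14 members among them (coloured by family). Mir297a-2 and Mir466l stand above 1, at 1.16 and 1.05, Mir467c, Mir467d and Mir467e lie slightly above 0, and Mir466n, Mir669h, Gm22925 and Mir297b lie below 0, the lowest at -0.76.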

How the data were processed

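The deposited tables hold raw read counts per gene for both strands together, the gene strand and the opposite strand. The authors made these counts, per the file notes, from alignments to mm10 with annotation M4. For the aligner, the counter, trimming and the handling of multimapping reads, nothing is given in the sources used here. Neither library sizes nor tests include the 4 rows that name no gene. Of 1973 gene IDs, 1894 matched GENCODE M21 (mm10), which gave symbols, positions and hairpins. The RefSeq miRNA table matched 0 of 107 members and 8 of 10 family genes outside Sfmbt2.

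CPM used gene-strand reads, and log ratios a pseudocount of 1 CPM. With 1 group no contrast could be fitted, so libraries were compared by Fisher's exact test. Members and lists were chosen with earlier results of these data known. Named members were those detected, those next to the detection minimum and those called. Sharing covers annotated hairpins, not the genome. In simulated counts over 509 genes with counting error only, 90 of 100 genes made to differ 3-fold, 100 of 100 made to differ 6-fold and 2 of 309 left alone were called. Alternatives covered the strand column, library size, edgeR 4.0.16 TMM, size factors from DESeq2 1.42.0, pseudocounts, minimum reads and CPM, stretch and window lengths, the member bounds and each replicate. Python 3.11.15, SciPy 1.17.1, Biopython 1.88 and R 4.3.3 were used.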

Additional observations from a re-analysis of the deposited data

Results flagged for a closer look

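Reads that matched several places, which have a row apart from the genes, numbered 4213961 in replicate 1 and 4224434 in replicate 2. With no control samples, they were picked out because they exceed what a count of 0 allows, as any such total would. How many of them came from the Sfmbt2 cluster was not tested, since the tables give only their total.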

How the results depend on the processing

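The share of the cluster, 0.425%, became 0.487% when the most abundant gene was left out of the library size, which is smaller by construction, and lay between 0.399% and 0.452% with either replicate left out. Detected members rose from 10 to 24 when 1 read in each library sufficed, were 14 at a mean of 1 CPM, and 10 or 11 in single libraries. Members differing between the libraries rose from 1 to 6 without the minimum fold, and Mir297a-2 was the member called under the other 5 alternatives. Under TMM scaling 5 members passed the adjusted p, Mir669c no longer among them. The median log2 ratio of 0.12 became 0.15 with a pseudocount of 0.1 CPM, 0.11 with 10 CPM and 0.14 with members of at least 10 CPM. It became 0.087 with TMM and 0.10 with DESeq2 size factors, and stayed above 0 throughout. Over all genes of at least 1 CPM the median moved too, from 0.041 to 0.00095 with TMM and 0.019 with DESeq2 size factors. Stretches of 18 and 22 bases gave 105 and 104 sharing members. Windows of 18 and 25 bases, chosen after seeing the data, left 42 and 41 members without a unique window, none of them detected. The bounds of the annotated gene gave the same number of members, 107. Levels of 12 named members changed by -2.75% to 14.7% under strand and scaling alternatives. No paired analysis was possible because the series holds 1 group. Depth limits members below 3 reads, and reads with several matches limit members with copies.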
